A study of Mus musculus with 12 samples.

Results

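The globin and erythroid genes described here were Hbb-y, Hba-x, Hbb-bh1, Hba-a1, Alas2, Klf1 and Epb42, taken as every probe set whose listed gene symbol, current or older, was one of these names: 7 of 18193 genes, counted as the symbols of probe sets listed for 1 gene with these 7 included. They had 15 probe sets of the 45101 on the array: 3 for Hbb-y, 1 for Hba-x, 3 for Hbb-bh1, 4 for Hba-a1, 1 for Alas2, 1 for Klf1 and 2 for Epb42. Of the 4 Hba-a1 probe sets, 3 were listed for both Hba-a2 and Hba-a1, near-identical paralogs that these probe sets cannot tell apart. A log2 value over 4 on at least 3 of the 12 arrays was required for testing, and 11 of the 15 probe sets passed. The 4 that did not were the probe set of Klf1, both of Epb42 and the only one listed for Hba-a1 alone.

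Haemoglobin is made of alpha-like and beta-like globin chains around heme. In the mouse embryo the first red cells come from the yolk sac, circulate with their nuclei and carry the embryonic chains encoded by Hba-x (zeta), Hbb-y (epsilon-y) and Hbb-bh1 (beta-h1), while red cells from the fetal liver and later the bone marrow carry adult alpha and beta chains. The genes of each family lie side by side in one cluster. Alas2 makes the erythroid form of the first enzyme of heme synthesis, Klf1 encodes a transcription factor that binds CACCC boxes of erythroid genes, and Epb42 encodes protein 4.2 of the red cell membrane skeleton.

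The arrays compared 4 groups of 129/Sv mice with 3 arrays each, in the order mutant E12.5, wild type E12.5, mutant adult and wild type adult. The mutants were Qkf gt/gt, with a gene-trap insertion on both alleles of Kat6b (Qkf, a histone acetyltransferase), and the others were wild type. The embryonic tissue was dorsal telencephalon at E12.5, whose sex was not labelled, and the adult tissue was dorsal cerebral cortex of males aged 155, 112 and 99 days in mutants 1 to 3 and 155, 112 and 101 days in wild types 1 to 3. Embryos 1 of each genotype came from one pair of parents, called the first cross, and embryos 2 and 3 of each genotype from another, called the second cross. The labels do not say if RNA of several embryos was combined, so the word embryo stands for an embryonic array, while the adult arrays came from separately numbered mice. Values are deposited log2 expression values with a floor of 2.19 on every array, and a probe set within 0.2 of it is called at the floor.

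Kat6b fell in the mutants of both stages on probe set 1423508_at, with a log2 difference of -4.31 at E12.5 (limma adjusted p = 0.000119) and -2.47 in adults (limma adjusted p = 0.0242). A second Kat6b probe set, 1447758_x_at, gave -2.82 at E12.5 and -0.40 in adults, the adult difference not called (limma adjusted p = 1). Progenitor markers of the dorsal telencephalon, 9 genes, averaged between 10.77 and 11.08 on the embryonic arrays, and 9 markers of cortical neurons averaged between 12.12 and 12.40 on the adult arrays. One adult array stood apart: mutant adult 3 had log2 values of 9.28 for S100a8 and 8.60 for S100a9, neutrophil genes, where the other 5 adult arrays reached at most 3.11 and 3.25, and 15.16 for the choroid plexus gene Ttr, where the others reached at most 9.18. Its average over 12 leukocyte markers was 5.0, against 3.15 to 3.24 on the other adult arrays, while Mpo, Cd79a and Cd14 were at the floor on it. Over 8 choroid plexus markers it averaged 5.11, against 3.16 to 3.41 on the others, while Otx2 and Cldn2 were at the floor on it. The array of mutant embryo 1 carried a label of its own and a later date than those of the other 5 embryos. Tissue pieces hold blood, and fewer red cells and less globin RNA per cell cannot be told apart in them.

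Promoters are shown for the embryonic globins Hbb-y and Hba-x, the adult globins Hba-a1 and Hbb-bs and for Alas2, to set the embryonic and adult genes side by side, and none is shown for Hbb-bh1. They come from the RefSeq table of build GRCm38.p6, run from 250 bases before to 50 after the start, and are written on the strand of the gene. Capitals mark motifs searched on both strands. The GATA motif, bound by GATA factors, was searched as AGATAA first, then as TGATAA, next as AGATAG, finally as TGATAG. The others were the CACCC box, spelled CCACACCC, the box spelled CCAAT, plus the motif spelled TATAAA.
Hbb-y, chr7:103853158-103853457, minus strand: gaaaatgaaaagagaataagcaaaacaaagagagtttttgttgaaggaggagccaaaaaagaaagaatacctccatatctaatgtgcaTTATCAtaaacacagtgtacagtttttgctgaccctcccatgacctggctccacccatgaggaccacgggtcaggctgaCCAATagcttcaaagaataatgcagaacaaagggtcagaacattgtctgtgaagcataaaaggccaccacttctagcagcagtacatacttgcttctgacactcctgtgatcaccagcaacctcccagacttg
Hba-x, chr11:32276350-32276649, plus strand: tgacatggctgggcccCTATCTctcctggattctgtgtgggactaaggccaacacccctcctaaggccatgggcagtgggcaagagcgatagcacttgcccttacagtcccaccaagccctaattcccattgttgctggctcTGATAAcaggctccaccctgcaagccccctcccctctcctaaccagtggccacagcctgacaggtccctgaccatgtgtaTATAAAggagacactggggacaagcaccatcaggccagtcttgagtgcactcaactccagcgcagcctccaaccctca
Hba-a1, chr11:32283422-32283721, plus strand: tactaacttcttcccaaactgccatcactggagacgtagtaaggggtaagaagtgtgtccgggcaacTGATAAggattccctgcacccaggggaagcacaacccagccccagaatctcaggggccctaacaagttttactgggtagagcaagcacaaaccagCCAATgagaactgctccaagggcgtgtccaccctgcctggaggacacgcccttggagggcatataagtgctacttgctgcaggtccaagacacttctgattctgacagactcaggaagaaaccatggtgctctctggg
Hbb-bs, chr7:103827879-103828178, minus strand: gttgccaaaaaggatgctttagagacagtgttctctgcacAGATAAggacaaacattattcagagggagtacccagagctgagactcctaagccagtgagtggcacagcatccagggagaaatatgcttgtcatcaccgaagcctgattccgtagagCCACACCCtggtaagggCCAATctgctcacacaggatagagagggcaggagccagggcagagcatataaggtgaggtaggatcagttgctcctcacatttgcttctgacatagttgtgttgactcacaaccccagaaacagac
Alas2, chrX:150547167-150547466, plus strand: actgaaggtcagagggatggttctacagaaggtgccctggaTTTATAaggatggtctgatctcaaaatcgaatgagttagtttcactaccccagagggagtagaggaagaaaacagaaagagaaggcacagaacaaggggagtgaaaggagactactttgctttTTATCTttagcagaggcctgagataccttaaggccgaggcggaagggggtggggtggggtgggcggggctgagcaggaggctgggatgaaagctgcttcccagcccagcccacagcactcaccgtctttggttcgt
Across the promoters of Hbb-y, Hba-x, Hba-a1, Hba-a2, Hbb-bs, Hbb-bt, Alas2, Klf1 and Epb42, a GATA motif was found in 8 of 9, against 29.8% of all 32851 promoters in the table. CCAAT was found in 6 of 9, against 37.4%, and TATAAA in 4 of 9, against 13.6%. The TATAAA matches lay at position -28 in Hba-x and Hbb-bt, but at -209 in Alas2 and -126 in Epb42, there on the other strand. The CACCC box as spelled occurred in 1 of 9, that of the adult beta-globin gene Hbb-bs, against 3.56% of all promoters. Shorter runs of ccaccc, as in the printed promoters of Hbb-y, Hba-x and Hba-a1, were not counted. The promoters of Hba-a1 and Hba-a2 shared an unbroken run of 297 of their 300 bases, as their transcripts shared probe sets. A match of letters is a description and no test of binding.

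The embryonic globins were high at E12.5, Hbb-y near the top of the scale and Hba-x and Hbb-bh1 below it, and all lay at or near the floor in adult cortex. Hbb-y probe set 1436717_x_at had log2 values of 15.49, 15.43 and 15.43 in mutant embryos 1 to 3, against 15.49, 15.39 and 15.50 in wild-type embryos 1 to 3. It read 2.19 on all 6 adult arrays. On the embryonic arrays this probe set lay between 0.076 and 0.25 below the highest value of its array, so that the scale left little room above it. Whether its signal was saturated was not tested. A second Hbb-y probe set, 1436823_x_at, had 15.50, 15.41 and 15.32 in mutant embryos, against 15.47, 15.42 and 15.56 in wild-type embryos. The third, 1450621_a_at, had 14.07, 14.02 and 14.05 in mutant embryos, against 14.06, 13.77 and 13.96 in wild-type embryos. All 3 Hbb-y probe sets overlapped between the genotypes.

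Hba-x, the embryonic alpha-like chain, had log2 values of 13.38, 13.05 and 13.05 on probe set 1448716_at in mutant embryos, against 13.60, 12.52 and 12.78 in wild-type embryos. The first-cross embryo was the highest of its genotype in both, and the 6 adult arrays read 2.20. Hbb-bh1, the other embryonic beta-like chain, had 14.00, 12.64 and 13.00 on probe set 1437990_x_at in mutant embryos, against 14.18, 11.99 and 12.47 in wild-type embryos. Probe set 1437810_a_at of Hbb-bh1 had 13.61, 12.16 and 12.49 in mutant embryos, against 13.68, 11.52 and 11.84 in wild-type embryos. Probe set 1450736_a_at of Hbb-bh1 had 13.83, 12.67 and 12.76 in mutant embryos, against 13.95, 12.03 and 12.37 in wild-type embryos. In each genotype embryo 1 stood well above the other 2 on every Hbb-bh1 probe set. Of the 18 adult readings of Hbb-bh1, the highest was 2.56, in wild type adult 3 on 1437810_a_at.

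The adult alpha-globin signal was high at both stages. Probe set 1452757_s_at of Hba-a1 and Hba-a2 had log2 values of 14.04, 14.18 and 14.27 in mutant embryos, against 14.02, 13.96 and 14.13 in wild-type embryos. It had 13.43, 12.89 and 13.88 in mutant adults 1 to 3, against 14.36, 14.55 and 13.15 in wild-type adults 1 to 3. The embryos lay close together, while the adults spread over more than a log2 unit and overlapped between the genotypes. Probe set 1428361_x_at had 12.95, 12.42 and 13.31 in mutant adults, against 13.80, 13.83 and 12.53 in wild-type adults. Probe set 1417714_x_at had 10.24, 9.42 and 10.69 in mutant adults, against 11.62, 11.87 and 9.92 in wild-type adults. On these 2 probe sets as well, wild type adult 3 lay below mutant adult 3. The embryonic readings of 1428361_x_at ran from 13.51 to 13.70 in mutants, against 13.46 to 13.56 in wild types. Those of 1417714_x_at averaged 12.31 ± 0.17 in mutants and 12.04 ± 0.16 in wild types (SD, n = 3 each). The probe set listed for Hba-a1 alone, 1453574_at, read 2.19 on all 12 arrays.

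Alas2 was measured at lower log2 values than the globins, which as levels of different probe sets are not comparable. It had 6.95, 6.17 and 6.86 on probe set 1451675_a_at in mutant embryos, against 6.96, 5.52 and 6.34 in wild-type embryos. In adults it had 3.81, 3.81 and 4.58 in mutants, against 5.56, 6.44 and 3.92 in wild types. The 2 highest adult readings were those of wild types 1 and 2, and the third wild type lay among the mutants. Mutants 1 and 2 had the same value, and they and wild type 3 lay under the filter's threshold of 4. The adult differences of Alas2 thus rest in part on low readings. Klf1 had 2.32, 2.34 and 2.32 in mutant embryos, against 3.25, 2.28 and 2.32 in wild-type embryos, with the first-cross wild type above the others. In adults it reached at most 2.41 in mutants and 2.61 in wild types. Epb42 on probe set 1417337_at had 4.35, 3.13 and 2.23 in mutant embryos, against 4.75, 2.19 and 2.26 in wild-type embryos. Both first-cross embryos were the highest of their genotype on it, and no adult array exceeded 2.26. Its second probe set, 1417338_at, reached at most 2.75 on any embryonic array.

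**Figure D1:**
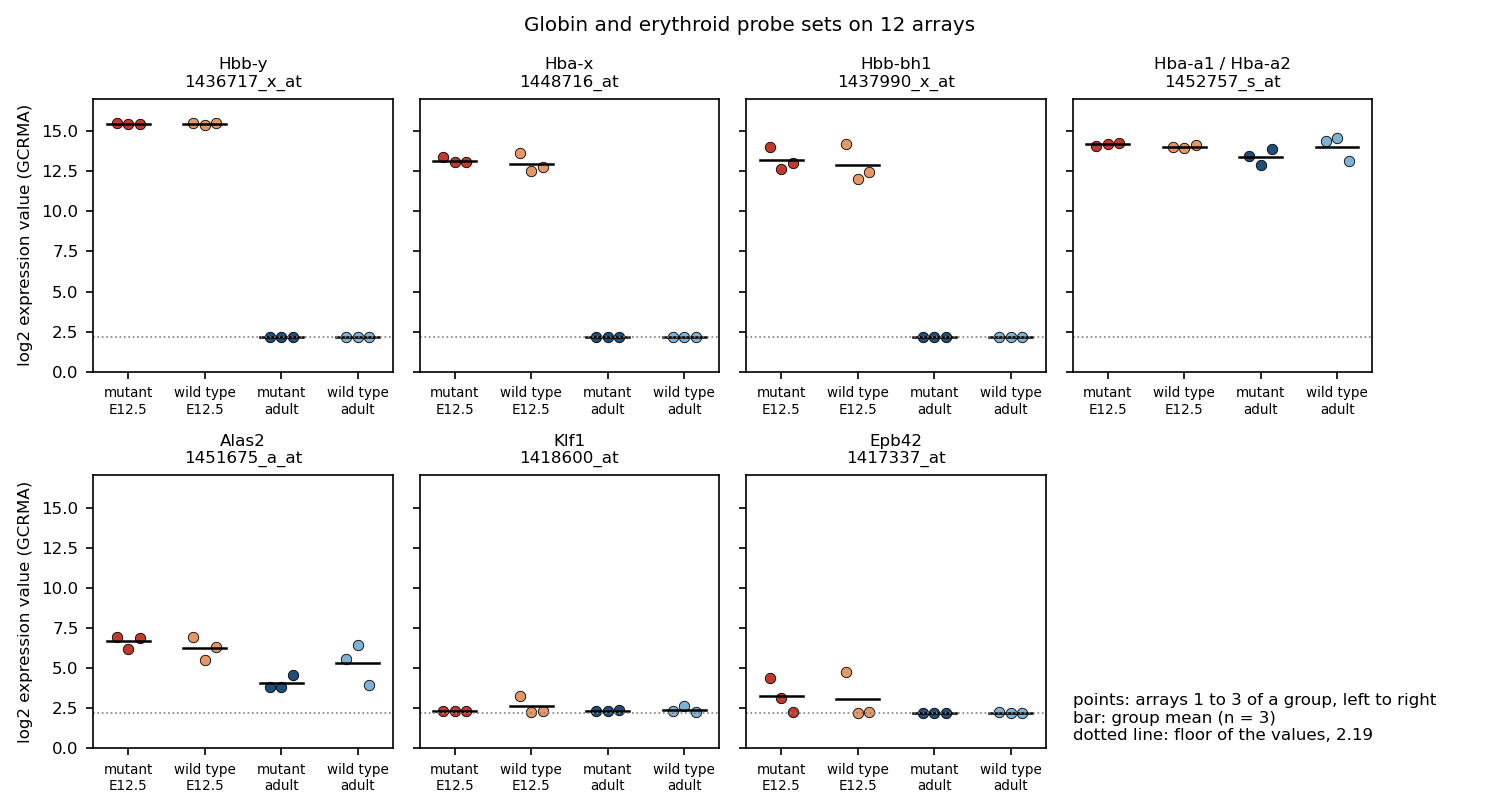
Log2 expression value (vertical axis, GCRMA) of 1 probe set for each of the 7 genes in mutant and wild-type E12.5 dorsal telencephalon and mutant and wild-type adult dorsal cortex, with points for arrays 1 to 3 of a group, bars for group means (n = 3) and a dotted line at the floor of 2.19. Hbb-y, Hba-x and Hbb-bh1 are at the floor on every adult array, while the adult alpha-globin probe set 1452757_s_at stays between 12.89 and 14.55 there.

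In the mutant embryos no globin or erythroid probe set passed the test. The question was whether loss of Kat6b altered these transcripts in the dorsal telencephalon. Of 11 probe sets tested 0 were called at a limma adjusted p under 0.05, and 0 had an unadjusted p under 0.05, where 19 of 23849 probe sets, 0.0797%, were called over the whole array and 1095 had an unadjusted p under 0.05. Hbb-bh1 1437990_x_at averaged 13.21 ± 0.70 in mutant embryos and 12.88 ± 1.15 in wild-type embryos (SD, n = 3 each), a log2 difference of 0.33 with a 95% interval of -0.73 to 1.39. Over the 3 Hbb-bh1 probe sets the differences were 0.30 to 0.40. Hba-x averaged 13.16 ± 0.19 in mutant embryos and 12.97 ± 0.56 in wild-type embryos, a log2 difference of 0.19 (interval -0.30 to 0.69). The fit pools the spread of embryos with adult arrays near the floor, so these Hbb-bh1 and Hba-x intervals are too narrow. For the alpha-globins, which spread more in adults, the E12.5 intervals are too wide. Hbb-y gave log2 differences of -0.07, -0.02 and 0.11 on its 3 probe sets, and its widest intervals reached -0.27 and 0.32. The 3 alpha-globin probe sets gave 0.13, 0.13 and 0.27, and Alas2 gave 0.39 (interval -0.86 to 1.63). Each of these has an adjusted p of 1, and the genotypes overlapped for every probe set of every member, where 3.17% of all probe sets tested had every mutant array above every wild-type array and 4.3% had it below. Within the first cross the mutant embryo minus the wild-type embryo was -0.18 for Hbb-bh1 1437990_x_at and -0.22 for Hba-x. Within the second cross the same differences of 2 mutant and 2 wild-type embryos were 0.59 and 0.40. On Hba-x and every Hbb-bh1 probe set the genotypes thus differed in opposite directions in the crosses, with 1 embryo against 1 in the first. Alas2 and Hbb-y 1436823_x_at also changed sign, and the other Hbb-y probe sets did not. The 3 alpha-globin probe sets were positive in both crosses, 1452757_s_at by 0.02 and 0.18. Whether the crosses differ in the mutant effect was not tested.

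Beside these globin values, the endothelial genes leaned one way at E12.5 without passing the test, and they were not alone in this. All 10 of the 10 tested members of the endothelial list, of 12 on the array, had a positive log2 difference between mutants and wild types. Over the whole array 11120 of 23849 probe sets tested were positive. The median of the list was 0.22, against -0.01 over all probe sets tested, and 0 of its members passed the test. Its average was 5.57 to 5.89 in mutant embryos and 5.36 to 5.59 in wild-type embryos, which overlap, and no member was at the floor on all embryonic arrays. Meningeal and mesenchymal genes had a median of 0.21, with 6 of 8 tested positive, and leukocyte genes 0.57, with 2 of 2. Of 9 progenitor genes 2 were positive. The part of these lists in the globin values was not tested. Among the other genes of the erythroid programme, 0 of 11 measured heme synthesis genes, 0 of 10 erythroid transcription factor genes, 0 of 11 red cell membrane genes and 0 of 8 iron and enzyme genes were called. Their median log2 differences were 0.009, -0.09, -0.03 and 0.06.

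In adult mutant cortex the adult alpha-globin and Alas2 values averaged lower than in wild types, and none of them passed the test. Of the 11 member probe sets 0 were called at a limma adjusted p under 0.05 and 1 had an unadjusted p under 0.05, where 7 of 23849 probe sets, 0.0294%, were called and 1107 had an unadjusted p under 0.05. Hbb-y, Hba-x and Hbb-bh1 were near the floor on all adult arrays and hold no mutant effect to measure. Probe set 1452757_s_at of Hba-a1 and Hba-a2 averaged 13.40 ± 0.50 in mutant adults and 14.02 ± 0.76 in wild-type adults (SD, n = 3 each), a log2 difference of -0.62 with a 95% interval of -1.35 to 0.11. Probe set 1428361_x_at gave -0.49 (interval -1.19 to 0.21), and 1417714_x_at gave -1.02 (interval -2.02 to -0.024) with an unadjusted limma p of 0.0456. The SD of 1417714_x_at was 0.64 in mutant adults and 1.06 in wild-type adults, against 0.17 and 0.16 in the embryos. The fit pools these spreads, so for the adults this interval is too narrow and this p too low. Alas2 averaged 4.06 ± 0.45 in mutant adults and 5.30 ± 1.28 in wild-type adults, a log2 difference of -1.24 (interval -2.49 to 0.0048). All 4 had a limma adjusted p of 1, and the genotypes overlapped for each, where 6.52% of all probe sets tested had every mutant array above every wild-type array and 3.31% had it below.

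Between animals of like age the sign was not the same in each pair. For 1452757_s_at the mutant minus the wild type was -0.93 at 155 days, -1.66 at 112 days and 0.73 for the mutant of 99 days against the wild type of 101 days. For Alas2 the same pairs gave -1.75, -2.63 and 0.66. The other 2 alpha-globin probe sets had the same signs as these in every pair. The pair with the positive difference held mutant adult 3, the array with neutrophil and choroid plexus transcripts. Without that array the log2 difference was -0.86 for 1452757_s_at (adjusted p = 0.573), -0.70 for 1428361_x_at, -1.31 for 1417714_x_at (adjusted p = 0.534) and -1.50 for Alas2 (adjusted p = 0.594), by limma, and again 0 members were called. Other single arrays moved these values as far. Without wild type adult 3 they were -1.06 for 1452757_s_at, -0.92 for 1428361_x_at, -1.63 for 1417714_x_at and -1.93 for Alas2, and without wild type adult 2 they were -0.36, -0.27, -0.65 and -0.67. Without mutant adult 2 the 3 alpha-globin values were -0.37, -0.26 and -0.67, and without wild type adult 1 they were -0.45, -0.29 and -0.78. No member was called in any of these fits.

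The wide spread of the adult arrays was seen for the alpha-globin probe sets and for the probe set common to the adult beta chains, while Hbb-b2 differed in part. The probe set common to the adult beta-globin genes, 1417184_s_at (listed for Hbb-bt, Hbb-bs, Hbb-b2 and Hbb-b1), had log2 values of 12.57, 11.89 and 12.99 in mutant adults, against 13.56, 13.88 and 12.26 in wild-type adults. From high to low, the arrays came in the order wild type 2, wild type 1, mutant 3, mutant 1, wild type 3 and mutant 2 for both this probe set and 1452757_s_at. Hbb-b2 1427866_x_at had 5.12, 5.58 and 5.39 in mutant adults, against 6.73, 6.42 and 5.58 in wild-type adults, in another order. Every mutant adult lay below every wild-type adult on it, by a very small margin between mutant 2 and wild type 3. Its log2 difference was -0.88 (interval -1.56 to -0.21, unadjusted p = 0.0147, limma adjusted p = 0.955). Hbb-b2 1427865_at had 4.25, 3.72 and 4.59 in mutant adults, against 4.70, 4.73 and 3.94 in wild-type adults, a difference of -0.27 (limma adjusted p = 1). The alpha log2 value minus the beta log2 value on the same array, 2 probe sets whose levels are not comparable as such, was 0.86, 1.00 and 0.89 in mutant adults, against 0.80, 0.68 and 0.89 in wild-type adults. The difference between 1452757_s_at and 1417184_s_at thus varied far less over the adult arrays than either value did. The SD of 1452757_s_at was 0.50 in mutant adults and 0.76 in wild-type adults, where probe sets within 1 log2 unit of the same level had a median SD of 0.12 and 0.093. In the embryos its SD was 0.12 in mutants and 0.090 in wild types, where such probe sets had 0.076 and 0.063. Among other lists, 8 of 10 endothelial genes tested were positive in adult mutants (median 0.22, against 0.02 over all probe sets). Over the whole array 13398 of 23849 were positive. Emcn was negative, at -0.23, and Pecam1 read 4.19 on every adult array. The list averages were 5.26 to 5.44 in mutants and 5.13 to 5.33 in wild types, with Kdr at the floor on all adult arrays. Of the 8 platelet markers, Ppbp, Itga2b, Gp9, Gp5 and Gp6 were at the floor on all adult arrays and Treml1 read 2.69 on each. Gp1bb had 7.59, 7.70 and 7.36 in mutant adults, against 7.21, 7.06 and 7.38 in wild-type adults, a difference of 0.33 (unadjusted p = 0.0259, limma adjusted p = 1). Pf4 lay between 3.75 and 4.07 on the adult arrays, and the part of either list in the globin values was not tested.

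**Figure D2:**
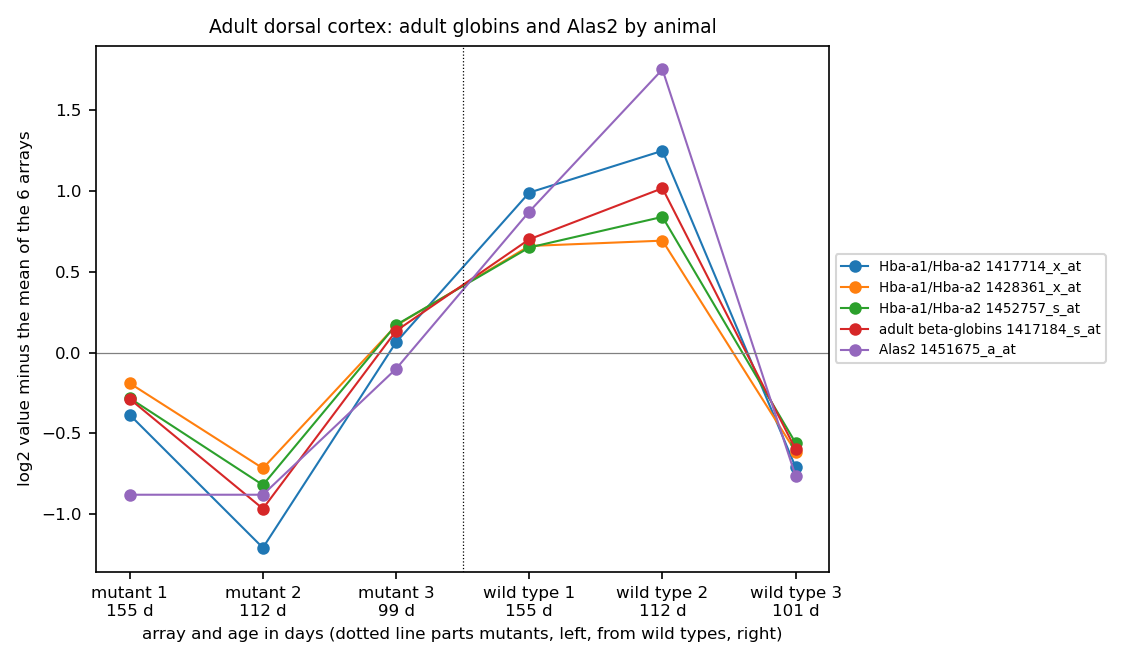
Log2 value minus the mean of the 6 adult arrays (vertical axis) for the 3 probe sets of Hba-a1 and Hba-a2, the adult beta-globin probe set and Alas2, by array with age in days, mutants on the left of the dotted line and wild types on the right. Wild types 1 and 2 are the 2 highest for every line, and wild type 3 lies below mutant 3 in each.

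**Figure D3:**
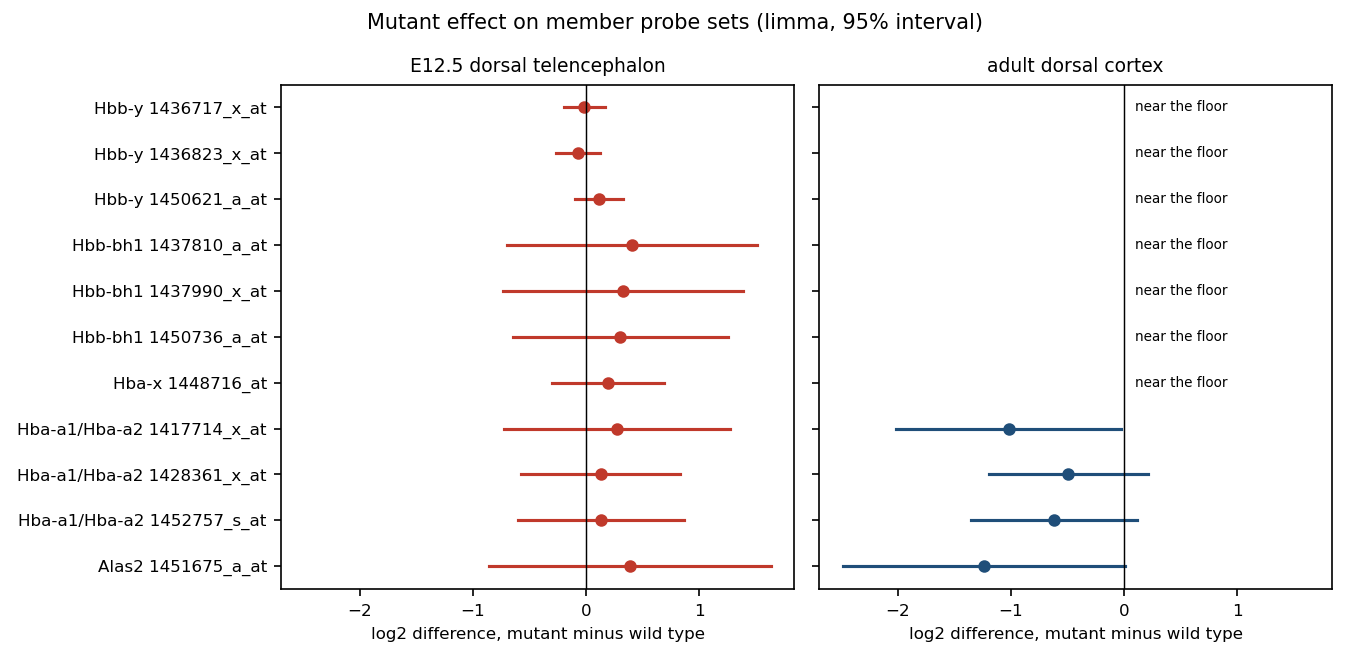
Log2 difference between mutant and wild type (horizontal axis, point) with its 95% interval from limma (line) for the 11 tested probe sets, at E12.5 on the left and in adult cortex on the right. All intervals at E12.5 include 0, and in adults the interval of 1417714_x_at ends at -0.024. The spread is pooled over both stages, which makes the adult alpha-globin intervals too narrow and those at E12.5 too wide. It makes the E12.5 intervals of Hbb-bh1 and Hba-x too narrow. The 7 probe sets near the floor in adults have no value drawn there.

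The mutant effect in adults minus that at E12.5 was called for 0 of 11 member probe sets, with 0 at an unadjusted p under 0.05, where 5 of 23849, 0.021%, were called and 1294 had an unadjusted p under 0.05. For Hbb-y, Hba-x and Hbb-bh1, near the floor in adults, this difference holds little but the E12.5 effect with its sign turned. Only Alas2 and the probe sets shared by Hba-a1 and Hba-a2 can therefore show a mutant effect that differs between stages. For 1452757_s_at the difference was -0.75 (limma adjusted p = 0.916), and for Alas2 it was -1.63 (limma adjusted p = 0.911).

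Between the stages the embryonic globins showed the widest differences of the group. All 11 probe sets averaged lower in adults than at E12.5 in both genotypes. Those of Hbb-y, Hba-x and Hbb-bh1 passed the filter through the E12.5 arrays alone, which selected them for lower adult values. In mutants 9 of 11, these included, were called lower, where 43.2% of all probe sets tested were called lower and 78.7% in either direction. In wild types 7 of 11 were called lower, all of them embryonic globins, where 44.1% were called lower and 78.8% in either direction. A call is therefore common in this comparison, and sizes and levels carry more than counts. Adult minus E12.5 log2 differences of Hbb-y ran from -13.26 to -11.86 in mutants and from -13.29 to -11.74 in wild types. The difference of Hba-x was -10.97 in mutants and -10.77 in wild types, and those of Hbb-bh1 ran from -11.02 to -10.48 in mutants and from -10.69 to -9.98 in wild types. With the adults at the floor, these differences understate the change, and no fold is given. The dissected regions, stages and array sets differed together, and their parts cannot be told apart.

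The adult alpha-globins and Alas2 differed less between the stages. In mutants 1452757_s_at was -0.76 in adults against E12.5 (limma adjusted p = 0.0548) and 1428361_x_at was -0.74 (limma adjusted p = 0.0513), neither of them called. Probe set 1417714_x_at was lower by 2.20 (limma adjusted p = 0.000891) and Alas2 by 2.60 (limma adjusted p = 0.00132), both called. In wild types the same probe sets gave -0.01, -0.12, -0.90 and -0.97, and 0 of these 4 were called (limma adjusted p 0.977, 0.745, 0.0871 and 0.136). Whether the stage difference depends on genotype is the same test as the difference between the mutant effects above, which called 0 of these 4 probe sets. Without wild type adult 2 the wild-type differences of 1417714_x_at and Alas2 were called, at -1.27 and -1.54, and without wild type adult 3 those of 1452757_s_at and 1428361_x_at were 0.42 and 0.31, above 0 and not called. The adult beta-globin probe set 1417184_s_at differed by -0.31 in mutants (limma adjusted p = 0.502) and by 0.55 in wild types (limma adjusted p = 0.246). Hbb-b2 was lower in adults where it was called: 1427866_x_at differed by -1.22 in mutants (limma adjusted p = 0.00328) and by -0.81 in wild types (limma adjusted p = 0.0305). Hbb-b2 1427865_at differed by -0.86 in mutants (limma adjusted p = 0.0231) and by -0.58 in wild types (limma adjusted p = 0.106), the second not called.

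Among embryos, Hbb-bh1 and Hba-x values were higher in the first cross than in the second, by more than they differed between genotypes. This comparison was chosen after the values were seen, and it sets 2 embryos of the first cross, 1 of each genotype, against 4 of the second, 2 of each. Hbb-bh1 1437990_x_at averaged 14.09 in the first cross and 12.53 ± 0.42 in the second (SD, n = 4). On the 3 Hbb-bh1 probe sets the lower first-cross embryo lay between 1.00 and 1.12 log2 units above the highest second-cross embryo. With cross and genotype as terms and the 6 embryonic arrays alone, the log2 differences of Hbb-bh1 were 1.64, 1.56 and 1.43 (limma adjusted p = 0.0902, 0.119 and 0.0900). That fit called 0 of 11 member probe sets, 4 with an unadjusted p under 0.05, where 18 of 23849, 0.0755%, were called and 3396 had an unadjusted p under 0.05. A fit of all 12 arrays with the pair as a block, which was run first, called the 3 Hbb-bh1 probe sets (limma adjusted p = 0.00633 to 0.0109) and 643 probe sets in all. In that fit the adult arrays, all near the floor for these genes, enter the spread, so the fit of the embryonic arrays alone is given as the main one.

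Other members moved less with the cross. Hba-x averaged 13.49 in the first cross and 12.85 ± 0.25 in the second, a difference of 0.64 (limma adjusted p = 0.245), and Alas2 differed by 0.73 (limma adjusted p = 0.424). Hbb-y differed by 0.05 to 0.11 and the 3 alpha-globin probe sets by -0.12 to -0.10. The scale left little room above the highest Hbb-y values, and whether they were saturated was not tested. Hbb-y 1450621_a_at, which read lower than the other Hbb-y probe sets, differed by 0.11. From high to low, the embryos came in the order wild type 1, mutant 1, mutant 3, mutant 2, wild type 3 and wild type 2 for Hba-x and for each of the 3 Hbb-bh1 probe sets. Within an array, Hbb-bh1 and Hbb-y did not keep one distance. The log2 value of 1437990_x_at minus that of Hbb-y 1450621_a_at was -0.07 in mutant embryo 1, against -1.38 and -1.05 in mutant embryos 2 and 3. It was 0.12 in wild-type embryo 1, against -1.78 and -1.49 in wild-type embryos 2 and 3. A difference within an array shows only that the 2 probe sets moved unequally. The adult beta-globin probe set 1417184_s_at went the other way, with a difference of -0.60 between the crosses (limma adjusted p = 0.240).

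Some red cell genes, chosen after their values were seen, had their highest values in the same embryos. Slc4a1, the band 3 anion exchanger to which protein 4.2 binds, had 9.81, 7.95 and 8.37 in mutant embryos, against 10.39, 8.18 and 8.13 in wild-type embryos on probe set 1434502_x_at. Its difference between the crosses was 1.94 (limma adjusted p = 0.0655). Slc25a37, the mitochondrial iron importer mitoferrin-1, had 9.70, 8.50 and 8.56 in mutant embryos, against 10.03, 8.26 and 8.35 in wild-type embryos. For both genes the 2 first-cross embryos lay above all 4 of the second cross. Of the membrane list 9 of 11 tested genes were positive in this comparison with a median of 0.41, of the heme synthesis list 8 of 11 with a median of 0.21, of the iron and enzyme list 6 of 8 with 0.16, and of the transcription factor list 5 of 10 with -0.02, where the median of all probe sets was -0.02. None of these genes was called, and the membrane genes Sptb, Dmtn and Slc14a1 and the heme synthesis genes Alas1 and Tmem14c differed by -0.0079, 0.00064, -0.04, -0.17 and -0.35. Hemgn, a nuclear protein of blood precursors, and Rhag, a partner of the Rh proteins, did not pass the filter and were chosen after their values were seen. Hemgn had 5.59, 2.37 and 2.19 in mutant embryos, against 7.79, 2.19 and 2.19 in wild-type embryos. Rhag had 5.34, 2.19 and 2.27 in mutant embryos, against 5.73, 2.21 and 2.19 in wild-type embryos.

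Markers outside the red cell lineage also had different values in the crosses, and of those given here Ttr passed the test. Ttr was lower in the first cross by 3.04 log2 units (limma adjusted p = 0.0401) and was called. With any 1 embryo left out, 0 probe sets of the whole array were called between the crosses. Among neural genes, Gad1, of inhibitory neurons, had 7.34 in mutant embryo 1 and 7.86 in wild-type embryo 1, and at most 5.28 in the second cross (difference 3.61, limma adjusted p = 0.0886). Neurod6, of cortical excitatory neurons, had 10.60 in mutant embryo 1 and 10.20 in wild-type embryo 1, and at least 11.92 in the second cross (difference -1.93, limma adjusted p = 0.0772). Neurog2 and Eomes, of cortical progenitors, differed by -0.95 and -0.83 (limma adjusted p = 0.0704 and 0.0744). Their lists did not move together. Of 9 progenitor genes 3 were positive and 6 negative (median -0.19), and Emx2, Hes5 and Sox2 were higher in both first-cross embryos than in any other. Of 9 neuron genes 4 were positive and 4 negative, with a median of 0. The averages of the choroid plexus list were 4.32 and 4.60 in the 2 first-cross embryos, mutant and wild type, against 4.57 to 5.51 in the second cross. For 10 meningeal and mesenchymal genes they were 6.26 and 5.93, against 6.42 to 6.87 in the second cross, and all 8 tested were negative with 0 called. Leukocyte markers averaged 2.68 and 2.44 in the first cross, against 2.56 to 2.64 in the second, with Mpo, Cd3e, Cd79a and Cd14 at the floor in all 6. The part of these genes and lists, or of the later array of mutant embryo 1, in the Hbb-bh1 values was not tested.

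**Figure D4:**
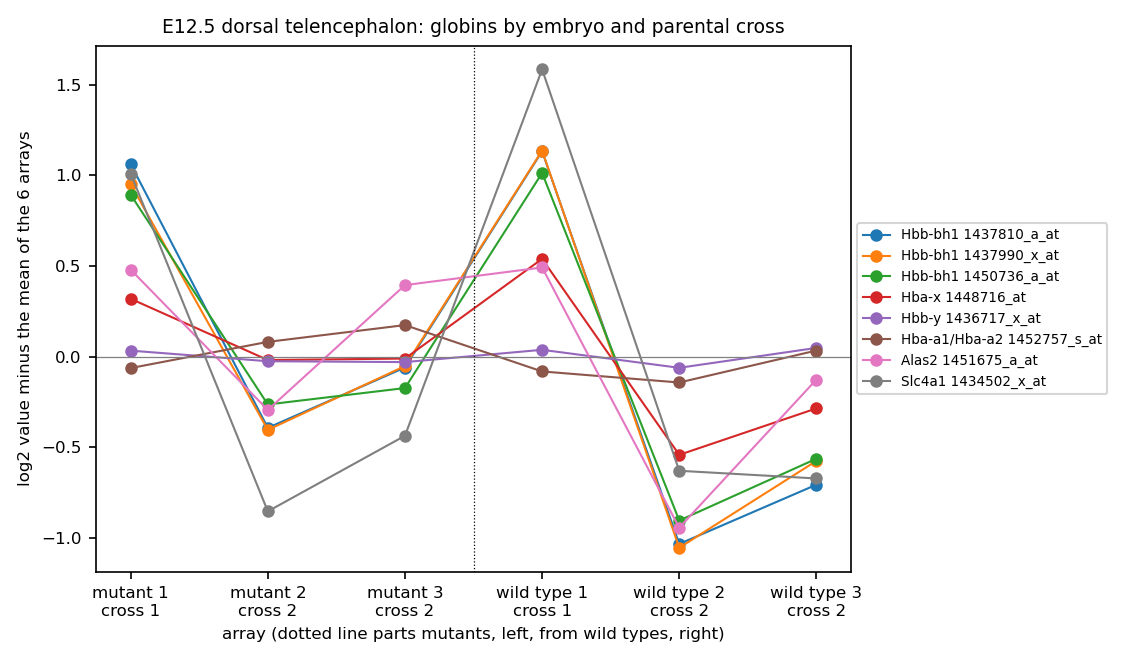
Log2 value minus the mean of the 6 embryonic arrays (vertical axis) for the Hbb-bh1, Hba-x, Hbb-y, Hba-a1/Hba-a2, Alas2 and Slc4a1 probe sets, by array with its parental cross, mutants on the left of the dotted line and wild types on the right. The Hbb-bh1 lines are high in mutant 1 and wild type 1, the embryos of the first cross, while Hbb-y stays flat. The scale left little room above the highest Hbb-y values, and whether they were saturated was not tested.

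Probe sets most like the embryonic globins were sought by Pearson correlation with the mean of Hbb-y, Hba-x and Hbb-bh1, each centred, among probe sets with 1 listed gene that passed the filter. Over the 6 embryonic arrays the 10 highest ran from r = 0.98 to 0.988 and were Wnt8b, Slc4a1, Slk, Bpgm, 2610005L07Rik, Car2, Myo5b, Tfip11, Fndc3c1 and Hebp1. Slc4a1, Bpgm (which makes the red cell regulator of oxygen binding) and Car2 (a carbonic anhydrase) are expressed in red cells, and Hebp1 encodes a heme-binding protein. Slc4a1 was lower in adult cortex than in the embryos, but Bpgm overlapped between the stages. Car2 was higher in adult cortex, at 10.90 to 11.31 against 8.24 to 9.96 in the embryos, so its signal is not particular to red cells here. Wnt8b, a secreted signal of the dorsal midline of the telencephalon, had 6.76 in mutant embryo 1 and 7.22 in wild-type embryo 1, and at most 6.07 in the second cross. With only 6 arrays, of which 2 share a cross, such coefficients describe these arrays only. Over all 12 arrays the 10 highest were Igf2bp3, Ttf2, Cdc6, Knstrn, Cenph, Uhrf1, B3gnt5, Hat1, Chek1 and Shcbp1, with r of at least 0.9995. Those points share 2 stages, far apart for every one of these genes, so the coefficients describe mainly the difference between stages.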

How the data were processed

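RNA of 12 samples, 3 in each of 4 groups, was measured on 1-colour oligonucleotide arrays after 2 cycles of amplification, per the labels' protocols. The deposited values are log2 expression values made with GCRMA, per the submitters' processing notes, with its version not given in the sources used here. They were used as deposited. Of 45101 probe sets, 34945 had 1 gene symbol in the platform annotation, 932 several and 9160 none, and 64 controls were left out. A log2 value over 4 on at least 3 of the 12 arrays left 23849. Group means were fitted to these with limma 3.58.1 in R 4.3.3 (8 residual degrees of freedom before moderation), p-values were two-sided and adjusted by Benjamini-Hochberg over all 23849, and an adjusted p under 0.05 was a call. The fit was checked on simulated data. Its spread is pooled over both stages, so for genes at the floor in adults the intervals at E12.5 are too narrow. The alpha-globin probe sets and Alas2 spread more in adults than in embryos, so their adult intervals are too narrow and their unadjusted p too low. The alpha-globin intervals at E12.5 are too wide.

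The number of arrays limits the precision, and depth does not apply to arrays. Replicates were numbered in accession order. The parents named in the labels pair embryos by cross, while for adults only similar ages are given. All probe sets of the 7 genes are named. From each other list, genes with the highest mean at E12.5 could be named, and S100a8, S100a9, Slc4a1, Slc25a37, Hemgn, Rhag, Gad1, Neurod6, Neurog2, Eomes, the other genes given beside these and the comparison of crosses were chosen after their values were seen. The genes and lists were chosen with earlier results of these data known. Alternatives covered the filter, the unit, the scaling, the arrays fitted, array weights, the variance model, the replicate block and leaving out arrays.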

Additional observations from a re-analysis of the deposited data

How the results depend on the processing

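No member probe set was called in either mutant comparison or in the difference between them under any alternative run. With the replicate block (parental cross or age pair), members called stayed at 0 in these 3 comparisons, the whole-array counts were 12 at E12.5, 2 in adults and 2 for the difference, against 19, 7 and 5 without it, and the comparison of crosses gave 3 member calls, against 0. Whole-array counts ranged over the alternatives from 3 to 86 at E12.5, 0 to 19 in adults, 0 to 22 for the difference, 9357 to 19468 between stages in mutants, 9314 to 19570 in wild types and 13 to 643 between crosses. Leaving out 1 array gave 12 to 27, 1 to 10, 2 to 11, 18006 to 18846, 18002 to 19043 and 0 to 0 in the same order. Members called between stages were 9 to 11 in mutants and 7 to 9 in wild types when 1 array was left out. With 1 probe set per gene they were 4 of 4 in mutants and 3 of 4 in wild types, and without the _s_at and _x_at probe sets 5 of 5 and 4 of 5, since fewer probe sets were tested.

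Sign changes occurred only in differences that were not called. At E12.5, Hbb-y 1436717_x_at became 0.017 with quantile normalization, 0.00024 with array weights and 0.0045 without wild type replicate 3, with a range of -0.050 to 0.0045 when 1 array was left out. Hbb-bh1 1437810_a_at, 1437990_x_at and 1450736_a_at became -0.024, -0.064 and -0.067 without mutant replicate 1, and -0.010, -0.12 and -0.073 without wild type replicate 2, where Hba-x became -0.030. Their highest values when 1 array was left out were 1.07, 0.98 and 0.89 for Hbb-bh1 and 0.51 for Hba-x, all without wild type replicate 1. Between stages in wild types, Hba-a2;Hba-a1 1428361_x_at became 0.043 and 1452757_s_at 0.10 with quantile normalization. With array weights 1452757_s_at became 0.10, and without wild type E12.5 replicate 3 it became 0.037. Leaving out 1 array gave -0.34 to 0.31 for 1428361_x_at and -0.28 to 0.42 for 1452757_s_at, lowest without wild type adult replicate 2 and highest without wild type adult replicate 3. Between crosses, without mutant replicate 1, Hba-a2;Hba-a1 1417714_x_at became 0.017 and Hbb-y 1436823_x_at -0.014, and without wild type replicate 1 they were -0.21 and 0.13. In mutants the stage differences of 1428361_x_at and 1452757_s_at were both called with the stricter filter, median centring, array weights, the trend and robust variance model, and without wild type adult replicate 2, wild type adult replicate 3 or mutant adult replicate 3, and 1428361_x_at also without wild type adult replicate 1. Their limma adjusted p there ran from 0.00477 to 0.0498. The cause was not tested. Members near the floor in adults were left out of the adult alternatives after their signs were seen to change, as they hold no adult effect. The fit of 1 stage alone was not run for comparisons that need both stages. With 3 arrays a group, only wide differences could pass.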
